A study of Homo sapiens with 4 samples.

Results

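Semaphorins are extracellular guidance cues, and plexins and neuropilins are the receptors that read them. The semaphorin, plexin and neuropilin genes were followed in invasive and poorly invasive populations of U87MG, an established human glioblastoma line. They were taken as the protein-coding genes whose symbols start with SEMA3 to SEMA7 or PLXN, plus NRP1 and NRP2. This gave 31 of the 29387 genes listed for all 4 libraries, 20 ligands and 11 receptors. The rule uses names only, not levels or differences. The groups were invasive 1 and invasive 2, populations that had entered organotypic brain slices (living sections of brain kept in culture), and control 1 and control 2, the poorly invasive populations. All 4 derive from parental U87MG cells, kept in DMEM with 10% FBS, glutamine and antibiotics, that spent 1 week on such slices, in a neural stem cell medium supplied with both FGF and EGF. Once isolated, the populations were regrown for 3 to 5 days and then lysed for RNA. Each population gave 1 library, and the design text pairs invasive 1 with control 1 and invasive 2 with control 2. All libraries thus describe 1 cell line after regrowth in culture, not cells inside tissue.

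Most class 3 semaphorins are secreted and bind neuropilins, which have short cytoplasmic tails and pass the signal on through class A plexins. Classes 4 to 6 are membrane proteins that bind plexins directly, and SEMA7A is held at the membrane by a lipid anchor. Bound plexins switch off R-Ras and Rap GTPases, which loosens adhesion and collapses actin at the leading edge of growth cones and migrating cells. In the brain these genes steer axons, vessels and migrating neural cells.

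The libraries held 13829871 to 17817756 counts, so 3 counts, the limit that a count of 0 allows, correspond to 0.168 to 0.217 CPM, the count scaled by the library total. This limit and the intervals below cover counting error only. Markers of the line were abundant for VIM, CD44, TNC and SPARC, with at least 7825 counts each per library. NES had 217 to 739 counts per library and GFAP 2 to 4. The lists for other brain cells were mixed. MOG, P2RY12, AQP4, CLDN5 and FLT1 had 0 counts in each library and PTPRC at most 1. The neuron markers STMN2 and SLC17A7 also had at most 1 count per library, and RBFOX3 had 0 to 2. In contrast, SNAP25 and GAD1 (neuron), CNP (oligodendrocyte) and CSF1R (microglia) had at least 120 counts in every library. KDR (endothelium) and PDGFRB and CSPG4 (pericyte) also had at least 120. Summed levels were 52.7 to 62.5 CPM in the invasive libraries and 57.2 to 59.2 CPM in the controls for the neuron list, and 89.1 to 124 against 87.6 to 106 CPM for the oligodendrocyte list. They were 10.2 to 18.2 against 10.8 to 21.4 CPM for microglia and leukocytes, 2.24 to 2.91 against 0.842 to 2.20 CPM for astrocytes, and 107 to 169 against 126 to 189 CPM for pericytes. The endothelial sum had 11.4 and 9.40 CPM in the invasive libraries, against 12.1 and 23.4 CPM in the controls, most of it KDR. No marker was called, and the part of these lists in any result was not tested. In bulk RNA, fewer cells expressing a gene and less RNA per cell cannot be told apart. On the first principal component control 2 lay at 36.1, control 1 at 10.2 and the invasive libraries at −22.8 and −23.5. Several fold changes that lean on control 2 are therefore also given without it.

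The family was led by 1 ligand and 1 receptor in every library. Ranked by CPM per kilobase of merged exons, the scale used here to compare genes, SEMA7A came first and NRP1 second in all 4 libraries. SEMA7A, which also acts through beta1 integrin, had 87.6 and 63.0 CPM per kb in invasive 1 and invasive 2, against 82.2 and 60.4 in control 1 and control 2. NRP1, the co-receptor of class 3 semaphorins and of VEGF, had 68.0 and 52.9 CPM per kb in the invasive libraries and 58.3 and 59.8 in the controls. The ranges of these genes overlap between libraries, so their order within the family rests on the values inside each library. Among protein-coding genes both stood between the 95.8th and 97.8th percentile. SEMA7A made up 62.0% and 56.5% of all semaphorin signal per length in the invasive libraries, and 62.9% and 57.9% in the controls.

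PLXNB2, SEMA3C, NRP2 and PLXNA1 followed, with medians over the libraries of 22.1, 21.5, 11.1 and 9.60 CPM per kb. SEMA4F, PLXNA3 and SEMA4B had medians of 8.996, 7.80 and 7.24. SEMA3C provided 86.3% and 86.1% of the class 3 signal in the invasive libraries and 87.3% and 89.5% in the controls. PLXNB2 provided 85.4% and 84.6% of the plexin B signal in the invasive libraries, against 89.8% and 87.5% in the controls. Several members were near 0. SEMA3F had 2 counts in control 1 and none elsewhere, SEMA5B had 1 or 2 counts per library and SEMA3G had 0 to 5. PLXNC1, the plexin receptor of SEMA7A, had 4 and 1 counts in the invasive libraries and 7 and 7 in the controls. The other receptor chain of SEMA7A, ITGB1, a gene singled out after its values were seen, had 1437 and 1590 CPM in the invasive libraries and 1346 and 1405 CPM in the controls. Its log2 fold change was 0.12 ± 0.11 (SE, edgeR adjusted p = 0.591).

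**Figure D1:**
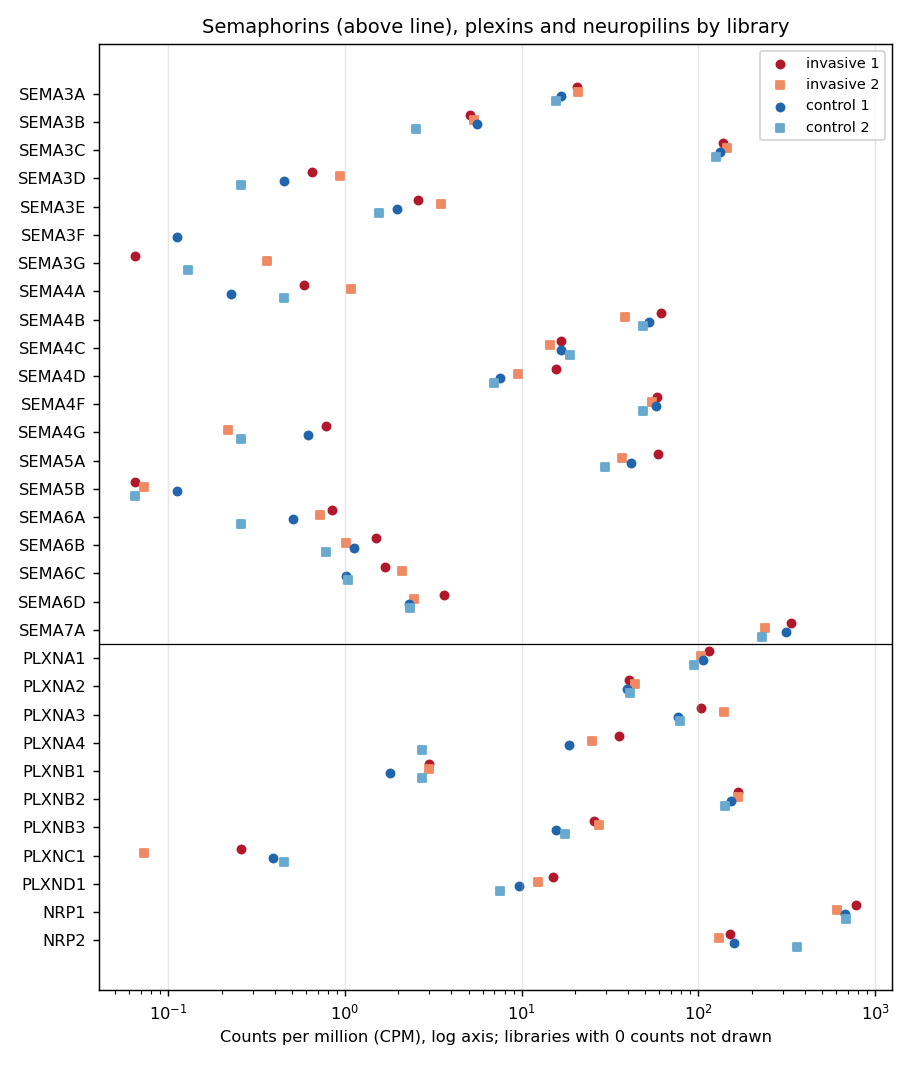
Level of each of the 31 members in CPM (log axis) in invasive 1 and 2 (red and orange) and control 1 and 2 (blue and light blue), 1 point per library. PLXNA3, PLXNB3 and PLXND1 have both invasive points to the right of both controls, and control 2 stands apart for PLXNA4 (2.72 CPM) and NRP2 (362 CPM).

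No member passed the test across all genes. Invasive and control libraries were compared by edgeR's quasi-likelihood test, blocked on pair, and the lowest Benjamini-Hochberg adjusted p in the family was 0.100, against a threshold of 0.05. Over all 14231 genes tested, 0.239% were called higher and 0.0351% lower. Of the 31 members, 24 had enough counts to be tested, and SEMA3D, SEMA3F, SEMA3G, SEMA4A, SEMA4G, SEMA5B and PLXNC1 did not. The filter on low counts can pass a gene through the group where it is high. SEMA6A passed in that way, with 13 and 10 counts in the invasive libraries and 9 and 4 in the controls. The counts and medians of tested members below include SEMA6A. At an unadjusted p under 0.05, 6 tested members were higher (PLXNA3, PLXNB3, PLXND1, SEMA4D, SEMA5A and SEMA3A) and 0 were lower, where 9.82% and 8.41% of all genes tested were. The fold changes of 21 of the 24 were positive, against 50.8% of all genes tested. Both invasive libraries lay above both controls in CPM for 13 of the 24 and below them for 1, where 23.7% and 19.7% of all genes did so. The same direction in both pairs was seen for 19 members that were higher and 1 that was lower, against 36.0% and 29.3% of all genes tested. DESeq2's Wald test also called 0 members. Of the 12299 genes to which it gave an adjusted p, it called 1.15% higher and 0.236% lower. SEMA6A, SEMA6B and SEMA6C got no adjusted p there, so they could not be called. With no filter on low counts, 5 members were called higher (PLXNA3, PLXNB3, SEMA4D, PLXND1 and SEMA5A) and 0 lower, in a fit that called 2.97% of 25577 genes higher and 2.71% lower. With 2 libraries against 2, an exact permutation test that ignores the pairs could not give a two-sided p below 0.333. Swapping labels only within pairs leaves fewer arrangements and a higher limit.

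Ligands and receptors were set side by side. The 14 tested semaphorins had a median log2 fold change of 0.37 and the 10 tested receptors 0.28, against 0.01 over all genes tested. Within pair 1 the medians of the log2 difference were 0.34 for semaphorins and 0.33 for receptors, and within pair 2 they were 0.32 and 0.19. The difference between the medians, 0.08, was −0.10 without control 2 and 0.47 without control 1, so the order of ligands and receptors rests on single libraries. The semaphorin median was 0.18 without control 2 and 0.69 without control 1, and the receptor median 0.28 and 0.22. The low-count semaphorins weigh as much in a median as the abundant ones. Summed per length, semaphorins over plexins and neuropilins gave 1.07 and 0.953 in the invasive libraries, against 1.14 and 0.819 in the controls. The groups overlap on that ratio. Plexins without neuropilins were not among the planned comparisons. The 8 tested plexins had a median of 0.51, and all were higher in both pairs (36.0% of all genes tested), some within counting error. Counting intervals of the ratio lay above 1 for 7 of the 8 in pair 1 and for 6 in pair 2. Those of PLXNA2 included 1 in both pairs, at 1.03 (0.922 to 1.15) and 1.07 (0.953 to 1.20). That of PLXNB1 did so in pair 2, at 1.09 (0.691 to 1.72). The log2 fold change of PLXNA1 was −0.0065 without control 2, and that of PLXNA2 −0.012 without invasive 2. Of the 8 tested plexins, 6 had both invasive libraries above both controls (23.7%). The untested plexin, PLXNC1, was lower, with 4 and 1 counts in the invasive libraries and 7 and 7 in the controls. The summed plexin level was 53.1 and 54.6 CPM per kb in the invasive libraries and 44.9 and 41.5 in the controls, and the groups do not overlap. The neuropilin sum was 78.9 and 62.4 CPM per kb in the invasive libraries and 69.7 and 85.8 in the controls, and there the groups overlap. Plexins over neuropilins, per length, gave 0.673 and 0.875 in the invasive libraries and 0.644 and 0.484 in the controls. Control 2 had the lowest ratio, and control 1 lay close to invasive 1.

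**Figure D2:**
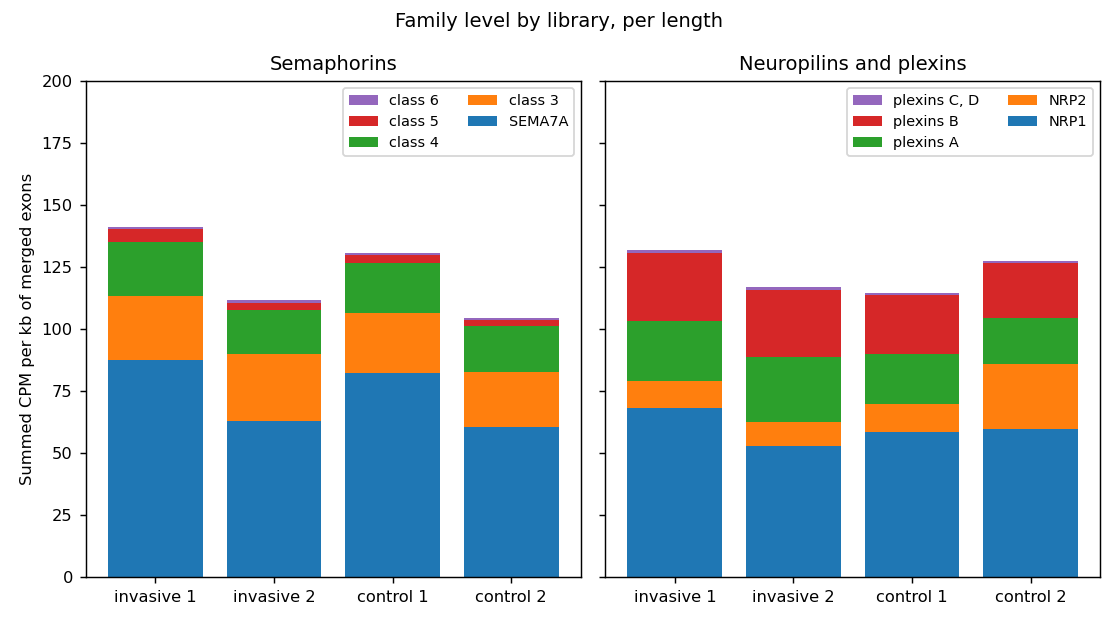
Summed CPM per kb of merged exons in each library, stacked by semaphorin class (left) and by receptor group (right). SEMA7A and NRP1 fill the base of every bar, at 60.4 to 87.6 and 52.9 to 68.0 CPM per kb, and NRP2 is widest in control 2 at 26.03.

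The plexins with the smallest p-values in the family are shown here by the promoter of each, since PLXNA3 and PLXNB3, on the same arm of the X chromosome, and PLXND1 were higher in both pairs. The sequences are from RefSeq (GRCh38.p14) and run from 250 bases before to 50 bases after the gene start, 5′ to 3′ on the strand of the gene. They lie at chrX:154458031-154458330 on the plus strand, chrX:153763999-153764298 on the plus strand and chr3:129606627-129606926 on the minus strand. Capitals mark GGGCGG on either strand, the GC box that SP1 family factors bind.
PLXNA3: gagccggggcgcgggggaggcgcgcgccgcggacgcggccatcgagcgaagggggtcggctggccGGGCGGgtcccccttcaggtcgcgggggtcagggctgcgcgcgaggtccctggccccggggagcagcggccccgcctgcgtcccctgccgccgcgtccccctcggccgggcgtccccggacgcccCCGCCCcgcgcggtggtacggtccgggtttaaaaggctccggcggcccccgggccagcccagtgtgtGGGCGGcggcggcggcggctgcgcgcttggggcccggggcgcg
PLXNB3: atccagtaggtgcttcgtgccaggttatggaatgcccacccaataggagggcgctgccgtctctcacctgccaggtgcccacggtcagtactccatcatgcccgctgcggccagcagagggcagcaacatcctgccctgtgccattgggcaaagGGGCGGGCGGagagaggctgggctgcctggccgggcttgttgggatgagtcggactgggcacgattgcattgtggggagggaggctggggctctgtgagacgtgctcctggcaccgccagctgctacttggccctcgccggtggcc
PLXND1: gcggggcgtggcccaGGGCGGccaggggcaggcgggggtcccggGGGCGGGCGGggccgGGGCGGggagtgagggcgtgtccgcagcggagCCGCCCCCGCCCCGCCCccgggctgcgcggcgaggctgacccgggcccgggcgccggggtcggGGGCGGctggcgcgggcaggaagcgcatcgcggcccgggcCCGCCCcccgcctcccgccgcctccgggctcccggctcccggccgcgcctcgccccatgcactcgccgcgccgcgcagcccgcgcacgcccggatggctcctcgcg
PLXNA3 held 3 matches, PLXNB3 2 overlapping ones and PLXND1 9, some of which overlap. GGGCGG was present in 45.0% of all 35116 RefSeq promoter windows of the same length, and in 31 of the 48 windows that belong to members of the family. The GC content of the 3 windows was 83.3%, 65.7% and 87.3%, against a median of 58.7% over all windows. None of the 3 held TATAAA (11.5% of all windows) or the AP-1 motif TGANTCA (7.71%), on either strand. These letters describe the windows and say nothing of what bound there.

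PLXNA3, a class A plexin that pairs with neuropilins to read class 3 semaphorins (chromosome X, 154458281 to 154473646), had 104 and 140 CPM in invasive 1 and invasive 2, against 77.1 and 78.9 CPM in control 1 and control 2. Both invasive libraries were above both controls, and the controls lay close together. The log2 fold change was 0.61 ± 0.13 (SE, adjusted p = 0.107), 0.39 without invasive 2 and 0.82 without invasive 1. Within pair 1 the ratio was 1.35 (95% interval 1.25 to 1.45) and within pair 2 it was 1.78 (1.65 to 1.91). PLXNA3 made up 36.4% and 45.9% of the plexin A signal per length in the invasive libraries and 32.4% and 36.5% in the controls.

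PLXNB3, a receptor of SEMA5A (chromosome X, 153764196 to 153779346), had 25.7 and 27.2 CPM in the invasive libraries and 15.6 and 17.6 CPM in the controls. The groups are well separated and the pairs gave similar ratios, 1.65 (1.41 to 1.93) and 1.54 (1.32 to 1.81). Its log2 fold change was 0.66 ± 0.13 (adjusted p = 0.100). Annotated exons of SRPK3 share 1432 bases with PLXNB3 on the same strand, and SRPK3 had 0 to 4 counts per library. SEMA5A, its ligand, had 59.0 and 36.7 CPM in the invasive libraries and 41.3 and 29.5 CPM in the controls. Invasive 2 was below control 1, so the groups overlap, but each invasive library exceeded its own control. Those ratios were 1.43 (1.30 to 1.58) in pair 1 and 1.24 (1.09 to 1.41) in pair 2. The log2 fold change of SEMA5A was 0.40 ± 0.11 (adjusted p = 0.163), 0.024 without invasive 1 and 0.18 without control 2.

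PLXND1, the receptor that SEMA3E binds without a neuropilin (chromosome 3, 129555175 to 129606818), had 14.9 and 12.4 CPM in the invasive libraries, against 9.60 and 7.58 CPM in the controls. The groups do not overlap, and the ratios were 1.56 (1.27 to 1.91) in pair 1 and 1.63 (1.28 to 2.08) in pair 2. The log2 fold change was 0.65 ± 0.17 (adjusted p = 0.152), and 0.48 without control 2. SEMA3E itself was sparse, with 40 and 48 counts in the invasive libraries and 35 and 24 in the controls. Its ratio was 1.32 (0.815 to 2.13) in pair 1 and 2.23 (1.34 to 3.81) in pair 2, so only the second interval lies above 1. The log2 fold change of SEMA3E was 0.75 ± 0.34 (adjusted p = 0.303).

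SEMA4D, a membrane semaphorin shed by proteases and the high-affinity ligand of plexin B1, had 15.7 and 9.54 CPM in the invasive libraries and 7.52 and 6.99 CPM in the controls. Invasive 1 stood well above the other libraries. The ratio was 2.09 (1.68 to 2.60) in pair 1 and 1.36 (1.05 to 1.78) in pair 2, with a log2 fold change of 0.75 ± 0.22 (adjusted p = 0.167), and 0.37 without invasive 1. Its receptor PLXNB1 had few counts, 46 and 41 in the invasive libraries against 32 and 42 in the controls, and a log2 fold change of 0.40 ± 0.31 (adjusted p = 0.530), 0.12 without control 1. PLXNB2, a receptor of SEMA4C and SEMA4D and the most abundant plexin, had 168 and 167 CPM in the invasive libraries and 153 and 141 CPM in the controls. The groups do not overlap but the difference is small, at a log2 fold change of 0.17 ± 0.10 (adjusted p = 0.411).

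**Figure D3:**
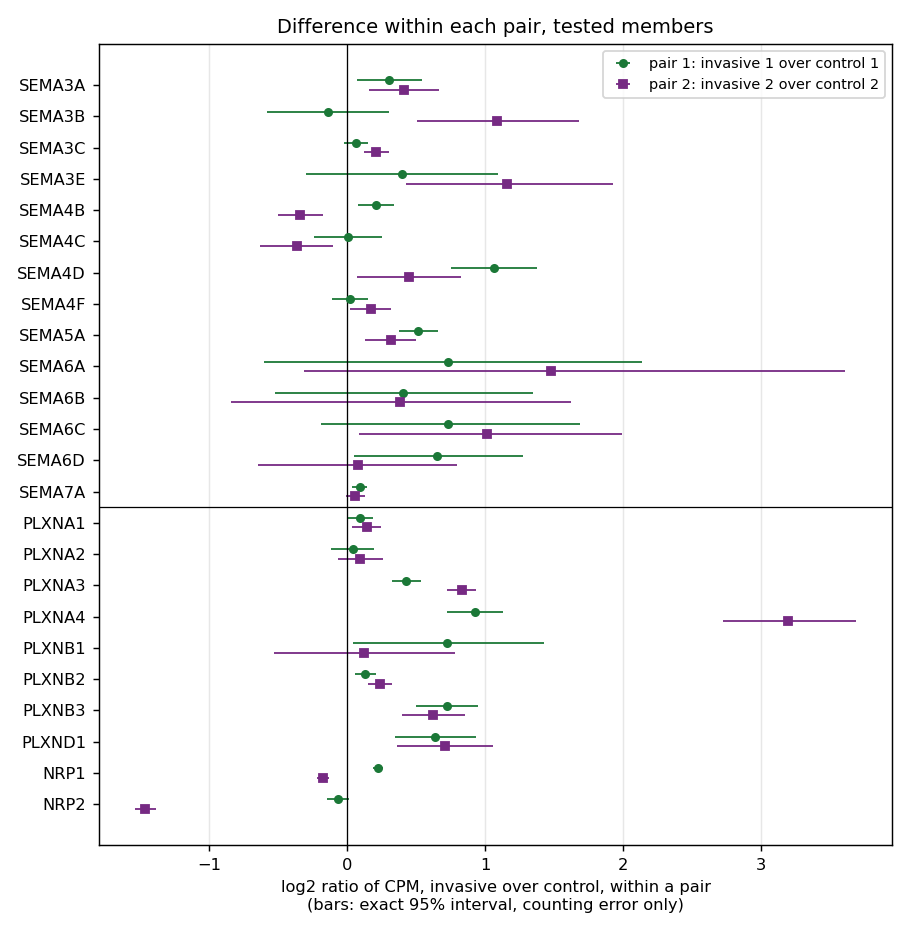
log2 ratio of CPM, invasive over control, for the 24 tested members in pair 1 (green circles) and pair 2 (purple squares), with exact 95% intervals that cover counting error only. PLXNA1, PLXNA3, PLXNA4, PLXNB2, PLXNB3, PLXND1, SEMA3A, SEMA4D and SEMA5A have intervals above 0 in both pairs, while NRP1 and SEMA4B have intervals on opposite sides of 0. Of all genes tested, 24.1% had an interval above 0 in pair 1 and 24.5% in pair 2, and the share for both pairs was not computed. The ratios are scaled by library totals only, and PLXNA1 in pair 1 is marginal, with a lower limit of 1.001 as a ratio.

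PLXNA4 and NRP2 had the largest differences within pair 2 among the tested members, and for both genes control 2 was the library that stood apart. PLXNA4, a class A plexin that can bind class 6 semaphorins directly (chromosome 7, 132123332 to 132648688), had 546 and 344 counts in the invasive libraries, against 331 in control 1 and 42 in control 2. In CPM these were 35.3 and 24.9, against 18.6 and 2.72. Control 2 was far below the other libraries, and both invasive libraries were above both controls. The ratio was 1.90 (1.65 to 2.18) in pair 1 and 9.15 (6.63 to 12.9) in pair 2. The log2 fold change was 1.81 ± 0.77 (adjusted p = 0.415), 0.66 without control 2 and 3.45 without control 1 (adjusted p = 0.00216). Leaving out a library drops the block, and the fit without control 1 called 0.559% of all genes higher and 0.586% lower. As a share of the plexin A signal, PLXNA4 gave 8.85% and 5.81% in the invasive libraries and 5.58% and 0.900% in the controls.

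NRP2, the neuropilin that SEMA3B, SEMA3C, SEMA3F and VEGFC bind (chromosome 2, 205681990 to 205798133), showed the opposite pattern. It had 152 and 131 CPM in the invasive libraries, against 158 CPM in control 1 and 362 CPM in control 2. Control 2 was the high library, and the other 3 lay within 131 to 158 CPM. The ratio was 0.957 (0.906 to 1.01) in pair 1 and 0.363 (0.344 to 0.383) in pair 2. The log2 fold change was −0.78 ± 0.47 (adjusted p = 0.516), −0.20 without control 2 and −1.36 without control 1, where control 2 is again the lone control. NRP1 over NRP2, per length, was 6.23 and 5.60 in the invasive libraries and 5.12 and 2.30 in the controls, so control 2 stood apart here too. The endothelial receptor gene KDR, which partners neuropilins in VEGF signalling, was also highest in control 2, at 9.89 and 8.68 CPM in the invasive libraries, against 10.9 CPM in control 1 and 22.9 CPM in control 2. KDR was singled out after its values were seen. The promoter windows of NRP2 (chr2:205682251-205682550, plus strand) and PLXNA4 (chr7:132576421-132576720, minus strand) are printed on the same terms, as the members on which control 2 departs most and in opposite directions. All windows are set by the RefSeq start. The whole windows of PLXNA4 and NRP2 lie inside the coordinates given here for the gene. The RefSeq starts of PLXNB3 and PLXND1 also lie inside those coordinates, by fewer bases.
NRP2: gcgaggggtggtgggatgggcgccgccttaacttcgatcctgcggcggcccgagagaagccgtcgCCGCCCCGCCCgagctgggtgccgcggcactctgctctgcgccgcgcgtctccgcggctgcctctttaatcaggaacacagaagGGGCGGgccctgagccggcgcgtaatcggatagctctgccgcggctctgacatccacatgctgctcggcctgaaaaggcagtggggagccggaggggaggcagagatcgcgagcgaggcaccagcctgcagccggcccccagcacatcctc
PLXNA4: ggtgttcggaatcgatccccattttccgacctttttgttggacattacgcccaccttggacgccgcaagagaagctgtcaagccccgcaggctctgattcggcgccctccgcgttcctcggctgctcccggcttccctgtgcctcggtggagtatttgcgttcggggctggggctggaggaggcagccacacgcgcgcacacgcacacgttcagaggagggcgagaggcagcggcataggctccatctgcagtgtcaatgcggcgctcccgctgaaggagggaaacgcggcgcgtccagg
NRP2 held 3 matches to GGGCGG and PLXNA4 none, and neither held TATAAA or TGANTCA.

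NRP1 had 783 and 610 CPM in the invasive libraries and 672 and 689 CPM in the controls. Invasive 1 was the highest library and invasive 2 the lowest, so the invasive group encloses the controls. The ratio was 1.17 (1.14 to 1.20) in pair 1 and 0.886 (0.861 to 0.912) in pair 2, and the log2 fold change was 0.01 ± 0.12 (adjusted p = 0.987). SEMA4B, a membrane semaphorin, followed the same pattern, with 61.1 and 38.5 CPM in the invasive libraries and 52.8 and 48.6 CPM in the controls. Counting intervals on opposite sides of 1 in the 2 pairs, as for these genes, were found for 4.48% of all genes tested. PLXNA1 and PLXNA2, the other class A plexins, had log2 fold changes of 0.10 ± 0.09 and 0.05 ± 0.11. PLXNA1 had 114 and 103 CPM in the invasive libraries and 107 and 93.8 CPM in the controls, which overlap. PLXNA2 had 40.4 and 43.7 CPM against 39.3 and 40.9 CPM in the same order.

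Among class 3 ligands, SEMA3A, which binds NRP1 with a class A plexin and collapses growth cones, had 20.6 and 20.8 CPM in the invasive libraries and 16.7 and 15.7 CPM in the controls. The groups do not overlap, and the log2 fold change was 0.34 ± 0.14 (adjusted p = 0.268). SEMA3C, the most abundant class 3 gene, had 138 and 146 CPM in the invasive libraries, against 132 and 126 CPM in the controls. These groups also do not overlap, at a log2 fold change of 0.12 ± 0.10 (adjusted p = 0.556). SEMA3B had 5.11 and 5.35 CPM in the invasive libraries, 5.61 CPM in control 1 and 2.53 CPM in control 2. Control 2 alone was low, and the log2 fold change of 0.40 ± 0.34 became −0.14 without it. SEMA3D had 10 and 13 counts in the invasive libraries and 8 and 4 in the controls, too few to test.

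Of the class 4 genes, SEMA4C, a ligand of plexin B2, had 16.7 and 14.5 CPM in the invasive libraries and 16.6 and 18.7 CPM in the controls, with a log2 fold change of −0.20 ± 0.16. SEMA4F had 58.4 and 54.4 CPM in the invasive libraries and 57.6 and 48.4 CPM in the controls, with 0.08 ± 0.11. In both genes the groups overlap. SEMA4A had 9 and 15 counts in the invasive libraries and 4 and 7 in the controls. SEMA4G had 12 and 3 counts against 11 and 4 in the same order, and 1170 bases of its exons lie opposite MRPL43, which had 551 to 714 counts per library. No source used here states whether the counting took strand into account, so reads of the SEMA4G exons opposite MRPL43 may be shared.

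The class 6 semaphorins, membrane ligands of class A plexins, were all sparse, at no more than 56 counts in any library. SEMA6D had 56 and 34 counts in the invasive libraries and 41 and 36 in the controls, and SEMA6C had 26 and 29 against 18 and 16. SEMA6B had 23 and 14 counts in the invasive libraries and 20 and 12 in the controls. Fold changes of SEMA6B, SEMA6C and SEMA6D ran from 0.36 to 0.85 on the log2 scale. Their standard errors were 0.30 to 0.39 and their edgeR adjusted p-values 0.282 to 0.651. SEMA6A, with 13 and 10 counts in the invasive libraries and 9 and 4 in the controls, passed the filter through the invasive group only. Its log2 fold change was 1.00 ± 0.53 (adjusted p = 0.364). Without invasive 1, SEMA6D had 0.058 and SEMA6B 0.055, and without control 2, SEMA6A had 0.59 and SEMA6B 0.13. SEMA7A had 333 and 239 CPM in the invasive libraries and 312 and 230 CPM in the controls. Its level followed the pair more closely than the group, and its log2 fold change was 0.06 ± 0.10 (adjusted p = 0.794).

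**Figure D4:**
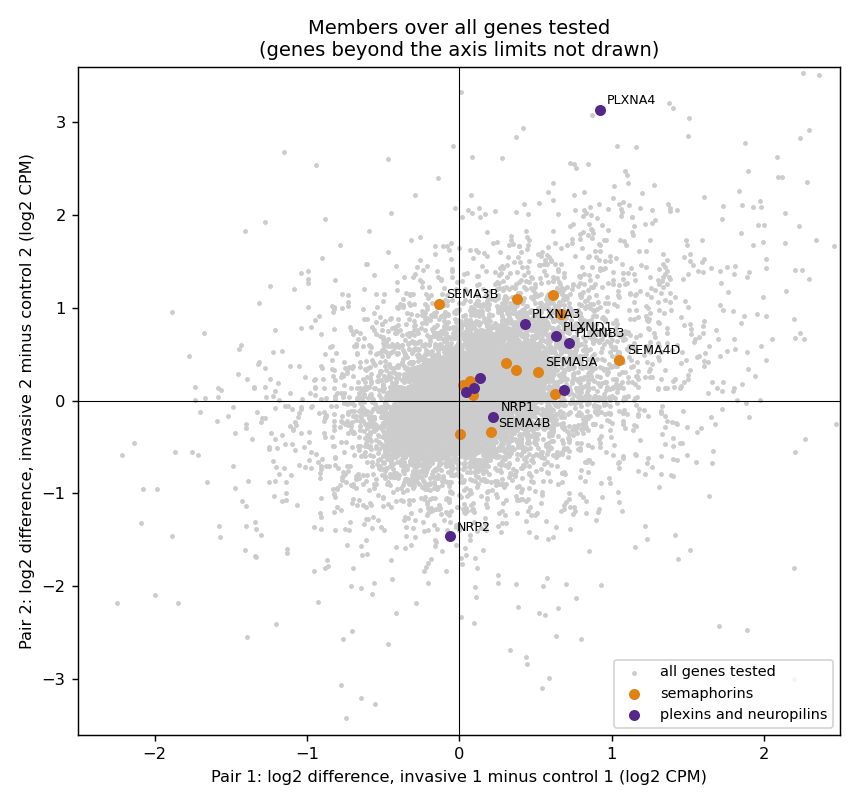
log2 difference of log2 CPM (invasive minus control) in pair 1 (x axis) and pair 2 (y axis) for the tested semaphorins (orange), tested plexins and neuropilins (purple) and all genes tested (grey). PLXNA4 (0.92 and 3.13) and NRP2 (−0.06 and −1.46) lie far from the other members along the pair 2 axis.

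The wider pathway was followed with 58 other genes, of which 51 were tested. They were co-receptors, other neuropilin ligands, plexin GTPase partners, exchange factors, effectors and the proteases that cut semaphorins. None was called higher or lower. At an unadjusted p under 0.05, 7 were higher and 2 lower, where 9.82% and 8.41% of all genes tested were. The median log2 fold change was 0.06. MRAS, a Ras-family GTPase that plexins act on, had 40.7 and 38.8 CPM in the invasive libraries, against 27.9 and 19.5 CPM in the controls (log2 fold change 0.74 ± 0.15, adjusted p = 0.102). NRCAM, an adhesion molecule that joins NRP2 in SEMA3B and SEMA3F reception, had 28 and 79 counts in the invasive libraries and 16 and 26 in the controls (1.43 ± 0.35, adjusted p = 0.130). Both genes had the invasive libraries above the controls. MICAL1, an actin-oxidizing enzyme downstream of class A plexins, and LIMK2, a kinase of cofilin, had log2 fold changes of 0.34 ± 0.11 and 0.31 ± 0.11 (adjusted p = 0.191 and 0.228).

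VEGFA, which shares neuropilins with class 3 semaphorins, had 411 and 364 CPM in the invasive libraries, against 559 and 584 CPM in the controls. The invasive libraries lay below the controls, with a log2 fold change of −0.58 ± 0.11 (adjusted p = 0.0968). SH3BP1, a Rac-inactivating protein that binds plexins, had 83 and 40 counts in the invasive libraries and 144 and 100 in the controls (−0.87 ± 0.25, adjusted p = 0.164). By group, medians ran from −0.13 for the other neuropilin ligands to 0.16 for the proteases. The 16 tested adaptors, kinases and effectors spanned −0.06 to 0.34, and the 9 tested GTPase partners −0.72 to 0.74.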

How the data were processed

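Strand-specific polyadenylated RNA libraries were made from 2 invasive and 2 control populations, per the labels' protocols. The authors deposited raw whole-number read counts per Ensembl gene, per the file headers. They also deposited a normalized value per gene rounded to whole numbers, a score whose method no source used here states, and it served 1 alternative only. The submitters' processing notes name the build GRCh38 and, without roles, TopHat2 2.0.12 and Bowtie, HTSeq, DESeq2, and bcl2fastq 1.8.4. Coordinates are GRCh38.

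CPM were raw counts over the library total. Of the genes in all 4 tables, those passing filterByExpr (by group, 10 counts, 15 in total) were tested with edgeR's quasi-likelihood F test (edgeR 4.0.16, limma 3.58.1, R 4.3.3), TMM, a robust prior and the pair as a block. P-values were adjusted over all genes tested (Benjamini-Hochberg, 0.05). The block follows the design text. Differences between same-group libraries correlated across genes between the groups (r 0.283). The block leaves 1 residual degree of freedom, so each gene's spread leans on a prior worth 5.45. Same-group libraries were not duplicates (chi-square per degree of freedom 21.5 and 34.5). With the block, p-values rest on the disagreement between the 2 pairs and on the prior. The design text calls the invasive populations independently derived and says no more of the controls. The sample titles call each invasive population a clone. Part of that disagreement may be technical, and how much is not known. Within-pair log2 differences used a prior count of 2 and ratios have exact binomial 95% intervals. These compare libraries, not conditions. Lengths are merged exons of GENCODE 29 (GRCh38). RefSeq promoter windows were found for 27 of the 31 members.

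Every member with at least 10 counts in sum is named, as are pathway genes with unadjusted p under 0.05 and the same sign in both pairs, up to 4 per direction. Members, lists and tests were chosen with earlier results of these data known.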

Additional observations from a re-analysis of the deposited data

Results flagged for a closer look

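NRP1 and SEMA4B were picked out because their pairs went opposite ways by more than counting error. NRP1 differed by 0.22 (log2, invasive minus control) within pair 1 and by −0.17 within pair 2, so pair 2 minus pair 1 was −0.40. SEMA4B differed by 0.21 within pair 1 and by −0.34 within pair 2, and pair 2 minus pair 1 was −0.55. The difference between the pairs was not tested, because a model with that term leaves no residual degree of freedom. Of all genes tested, 4.48% had counting intervals on opposite sides of 1 in the 2 pairs.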

How the results depend on the processing

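Alternatives kept the direction of the 24 tested members in all but 10 of 192 fits of a member, and the prior count of 0.5 moved no within-pair difference beyond its counting interval. Over the 8 alternatives the log2 fold change of PLXNA3 ran from 0.39 to 0.82 and that of PLXNB3 from 0.58 to 0.73. The alternatives reuse the same 4 libraries, in which these genes had the smallest p-values of the family. With no replicate block 0 members were called, and 4 were higher at an unadjusted p under 0.05. Under that fit the semaphorin median was 0.35. That fit called 2 genes in all, against 39 with the block, and had 6.49% of all genes higher at an unadjusted p under 0.05. DESeq2's size factors called 89 genes and DESeq2's Wald test 171, and neither called a member. The Wald test called 1 pathway gene (VEGFA). With no filter on low counts, which called 1453 of 25577 genes in all, 5 members were called higher (PLXNA3, PLXNB3, SEMA4D, PLXND1 and SEMA5A) and 7 pathway genes were called. That fit gave medians of 0.35 for semaphorins and 0.15 for receptors over all 31 members, 0.20 apart, and NRP1 turned to −0.018; the cause was not tested.

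Leaving out 1 library, in fits with no block where the lone library is assumed to vary like the other group, gave 0 to 1 members called higher and 0 to 1 called lower. Both calls came without control 1 (PLXNA4 and NRP2), which leaves control 2 as the lone control. Those fits called 8 to 170 genes in all. Members at an unadjusted p under 0.05 numbered 2 to 7 higher and 0 to 1 lower, the lowest without invasive 1 and 3 without control 2, where 4.52% to 6.28% of all genes were higher and 2.42% to 5.18% lower. The semaphorin median ran from 0.18 to 0.69, the receptor median from 0.22 to 0.28 and their difference from −0.10 to 0.47. Pathway genes called numbered 0 to 1 (KDR, without control 1). Log2 fold changes that changed sign ran from −0.21 (without invasive 1) to 0.31 for SEMA7A, also −0.16 without control 2, and from −0.18 (without invasive 1) to 0.18 for NRP1. SEMA4B ran from −0.43 to 0.24 (without invasive 2), also 0.024 without control 1, and PLXNA2 from −0.012 (without invasive 2) to 0.096. The lowest values of PLXNA1, SEMA4F and SEMA3B, −0.0065, −0.062 and −0.14, came without control 2, and their highest were 0.20, 0.21 and 1.04. The authors' normalized values, listed in pair 2 for 17 members, moved 1 within-pair difference (NRP1 in pair 1, 0.27). Depth left SEMA3D, SEMA3F, SEMA3G, SEMA4A, SEMA4G, SEMA5B and PLXNC1 untested, and the class 6 genes, SEMA3E and PLXNB1 had at most 56 counts per library.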
